A study of Mus musculus with 192 samples.

Results

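Genes that restrain ERK or the related kinases p38 and JNK were examined in a list of accessible chromatin windows. The list was made from mouse 4T1 cells and splenocytes by Pi-ATAC, in which single cells are sorted on protein staining and their open DNA is cut and tagged by a transposase. The 10 genes were Dusp1, Dusp4, Dusp5, Dusp6, Dusp7, Dusp10, Spry1, Spry2, Spry4 and Spred1, of 22072 protein-coding genes with a unique symbol. Their loci, the gene body and 50 kb either side in mm9, held 101 of the 50000 windows of the list, each 500 bp long. A total of 25 windows lay within 1 kb of an annotated transcript start of the gene (promoter windows), and 76 lay elsewhere in the locus (other windows). The genes were selected on the number of windows at their starts and in their loci in this same list, so the counts at them are a description and carry no test.

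ERK is a kinase that carries growth factor signals from receptors through RAS, RAF and MEK to the nucleus. Among the genes it switches on are its own brakes. Dual-specificity phosphatases of the MAP kinase phosphatase group remove the activating phosphates from ERK, p38 or JNK, whereas Sprouty and Spred proteins act further up, between receptor, RAS and RAF. Epithelial cancer cells with active growth factor signalling and lymphocytes with active antigen receptors both use these brakes.

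The 4T1 cells, an epithelial line from a mouse breast cancer, were sorted for EpCAM. The splenocytes were sorted for CD45 and were freshly isolated from 1 spleen of an MMTV-PyMT mouse, a transgenic model in which a viral oncogene is driven in the mammary gland, and this animal had no tumour when it was killed. The labels and methods give no age and no treatment for either group. Both were mixed, fixed, permeabilised, transposed in bulk and stained before single cells were sorted. Sample titles give 96 cells to each group, whereas source names give 95 to 4T1 and 97 to splenocytes.

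The deposited list gives positions only, with no read count or score per window, and no depth could be read from it. Its window names were read as calls on both groups together, while the methods speak of cells of a single condition, so which cells opened a window cannot be told apart here. The list is 1 sample without replicates. The 4T1 markers all had promoter windows: Epcam had 2, the cadherin gene Cdh1 had 4, and the keratin genes Krt8 and Krt18 had 1 each. Of the leukocyte markers, Laptm5, Coro1a, Cd79a and Cd3e had 1 to 4, but Ptprc, which encodes CD45, had none at a start, with 4 other windows.

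All 10 genes had at least 1 promoter window, against 48.2% of protein-coding genes. All 10 also had at least 1 other window in the locus, against 80.3%. At least 10 other windows, a limit chosen after the values were seen, were counted at 4 of the 10 genes, namely Dusp4, Dusp5, Dusp6 and Dusp7, against 13.1% of protein-coding genes. The median gene of the 10 had 2.5 promoter and 6 other windows, whereas the medians over all genes were 0 and 3, and over the 10640 genes with a promoter window 2 and 5. The 4 genes with many other windows all encode phosphatases, while Dusp10 had 5, the Sprouty genes had 4 to 7 and Dusp1 and Spred1 had 1 each.

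**Figure D1:**
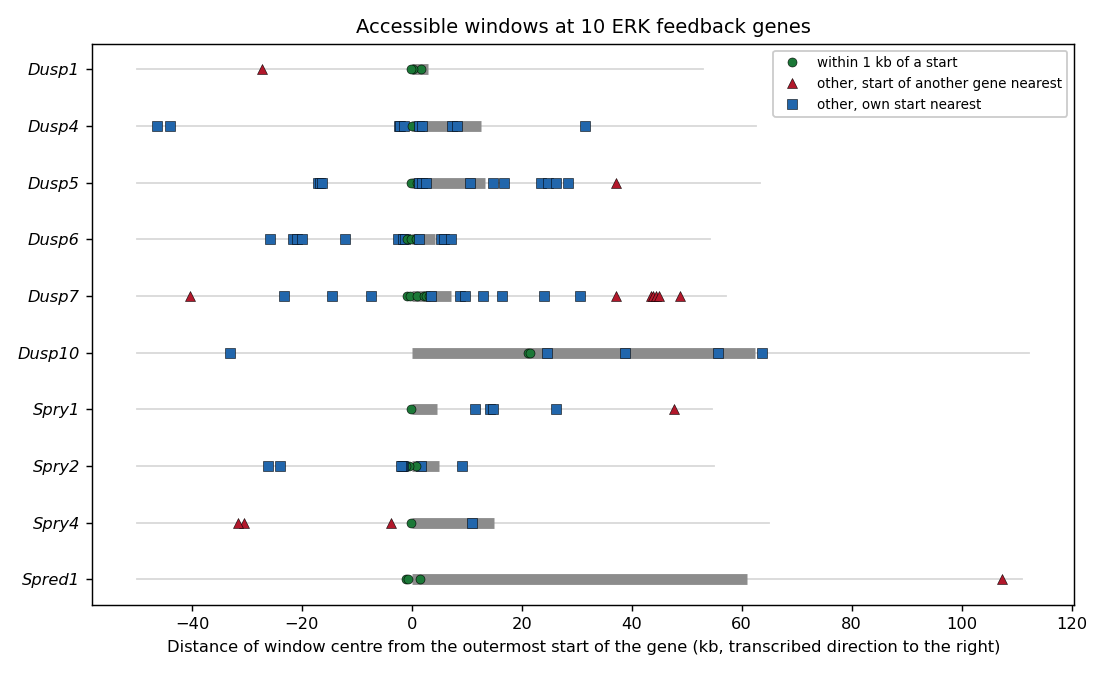
Window centres along the locus of each of the 10 genes, with the distance from the gene's outermost annotated start in kb on the horizontal axis and the gene body as a grey bar. Green circles are promoter windows, blue squares other windows nearest to the gene's own start, and red triangles other windows nearest to a start of another gene. Windows crowd around Dusp4, Dusp5, Dusp6 and Dusp7, Dusp10 has its promoter windows inside the gene body, and Spred1 has a single other window far downstream.

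Dusp1 (mm9 chromosome 17, 26642535 to 26645464, minus strand) encodes a nuclear phosphatase of p38, JNK and ERK that is made within minutes of a stimulus. It had 3 promoter windows and 1 other window. The promoter windows were centred 209 bp upstream, 100 bp downstream and 948 bp downstream of the nearest of its 3 starts, the last of them in a coding exon. The only other window lay 27.2 kb upstream and was nearer to a start of Gm8225, at 7003 bp. Of all protein-coding genes, 19.7% had fewer other windows than Dusp1. The next windows outside the locus lay 52.6 and 53.5 kb from the gene. The Dusp1 promoter window held a cyclic AMP response element, the word TGACGTCA that CREB and ATF proteins bind, with its first base 96 bp upstream of the outermost start, and a GC box (GGGCGG, bound by SP and KLF proteins) on either side. The stretch is printed from chr17:26645465-26645568 of mm9 (minus strand), with the response element and GC boxes in capitals, since this was the only promoter of the 10 genes with that element.
Dusp1 promoter: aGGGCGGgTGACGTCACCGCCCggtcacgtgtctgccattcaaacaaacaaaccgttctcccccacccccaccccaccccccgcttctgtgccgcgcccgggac

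Both overlapping Dusp1 windows covered that element, so 2 of the 25 promoter windows of the 10 genes held it (8.00%), from 1 site. In the whole list 2.82% of the 17303 promoter windows did.

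Dusp4 (mm9 chromosome 8, 35870351 to 35882948, plus strand) encodes a nuclear, inducible phosphatase of ERK and JNK. It had 1 promoter window, centred 38 bp upstream of its only annotated start, and 10 other windows. All 10 other windows were nearest to the start of Dusp4 itself. Upstream of the gene there were 5, of which 3, at 1.41, 2.09 and 2.37 kb, were summits of a single peak call and 2 lay at 44.0 and 46.4 kb. Within introns there were 4, at 1.30, 1.89, 7.35 and 8.19 kb, and 1 lay 31.5 kb downstream of the start. No other protein-coding gene started in the locus. The promoter window had a GC content of 66.4% and held 4 GC boxes, 3 of which fall in the 200 bases before the start, printed with GC boxes in capitals from chr8:35870151-35870350 (plus strand) as an example of a promoter with this word and neither an AP-1 nor an ETS word.
Dusp4 promoter: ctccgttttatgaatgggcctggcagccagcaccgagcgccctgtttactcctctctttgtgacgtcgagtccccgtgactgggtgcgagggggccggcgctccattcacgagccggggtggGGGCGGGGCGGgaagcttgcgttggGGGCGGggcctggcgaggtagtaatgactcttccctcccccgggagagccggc

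Dusp5 (mm9 chromosome 19, 53603599 to 53616921, plus strand) encodes a nuclear phosphatase that acts on ERK alone. It had 2 promoter windows, centred 127 bp upstream and 864 bp downstream of its start, and 14 other windows, a number below which 95.1% of protein-coding genes lay. Of the 14, 13 were nearest to the Dusp5 start. They formed 3 groups. Upstream, 3 windows lay 16.3 to 17.1 kb from the start. In the introns, 3 lay between 1.35 and 2.54 kb and 1 at 10.5 kb. Downstream of the gene, 7 lay between 14.7 and 37.1 kb from the start. Each of the 16 windows of this locus was a peak call of its own with 1 listed summit. The start-proximal Dusp5 window held an adjacent pair of CArG boxes, the site of serum response factor, which carries ERK signals to immediate early genes together with ETS partners. Their first bases were 46 and 36 bp upstream of the start. A GC box stood 60 bp upstream, and the word GAGGAAGT, bound by PU.1 and related ETS proteins, 157 bp upstream on the opposite strand. This promoter is printed from chr19:53603399-53603598 (plus strand), with the CArG boxes, GC box and PU.1 word in capitals, as the only promoter of the 10 genes with a CArG box.
Dusp5 promoter: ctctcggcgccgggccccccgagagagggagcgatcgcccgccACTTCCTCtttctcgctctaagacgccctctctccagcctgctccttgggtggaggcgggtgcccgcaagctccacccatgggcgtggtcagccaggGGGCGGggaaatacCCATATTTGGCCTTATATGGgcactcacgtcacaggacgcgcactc

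A CArG box was found in 1 of the 25 promoter windows of the 10 genes (4.00%, exact 95% interval 0.101% to 20.4%) and in 1.88% of all promoter windows. Away from the start, Dusp5 windows held AP-1 words (TGANTCA, where N is any base) and ETS words (CNGGAAGT) side by side. The AP-1 word takes in TGAGTCA and its reverse complement TGACTCA, the sites of FOS and JUN proteins, and also TGAATCA and TGATTCA. Pairs of an AP-1 and an ETS word were looked for after they had been seen. At 26.1 kb downstream of the start 16 bases separated the words, and at 37.0 kb 8 bases did, with the ETS word on the opposite strand. The latter window was nearer to a start of Nutf2-ps1. Dusp6 had another pair, 21.0 kb upstream of its start, with 4 bases between the words. The Dusp5 pair at 26.1 kb held TGAGTCA, whereas the Dusp5 pair at 37.0 kb and the Dusp6 pair held TGAATCA. AP-1 and ETS words are in capitals below, printed from chr19:53629673-53629727, chr19:53640564-53640610 and chr10:98704895-98704937 (all plus strand), because windows with both words within 20 bp of each other made up 3 of the 76 other windows (3.95%) and 157 of 31672 windows away from starts in the whole list (0.496%).
Dusp5 downstream, first: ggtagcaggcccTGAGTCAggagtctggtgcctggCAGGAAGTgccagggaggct
Dusp5 downstream, last: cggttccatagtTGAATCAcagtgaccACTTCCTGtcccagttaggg
Dusp6 upstream: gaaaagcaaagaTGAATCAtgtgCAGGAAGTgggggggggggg

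In the Dusp6 window the AP-1 word lay 8 bp and the ETS word 3 bp from the window centre, which is the summit of the peak, and a run of G bases followed. In the Dusp5 windows the words lay 75 to 160 bp from the centre. Counting any spacing, 4 of the 76 other windows held both words (5.26%), at Dusp5, Dusp6 and Spry2, against 3.74% of all windows away from starts.

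Dusp6 (mm9 chromosome 10, 98725865 to 98730122, plus strand) encodes a cytoplasmic phosphatase selective for ERK and is among the most used readouts of ERK activity. It had 3 promoter windows, centred 844 bp and 81 bp upstream and 802 bp downstream of its start, and 12 other windows, all nearest to the Dusp6 start. All 3 promoter windows belonged to a single peak call with 6 listed summits, which ran from 1.57 kb upstream to 1.36 kb downstream of the start. Of the 44863 calls of the list, 17 had at least 6 listed summits. Further upstream, 5 windows lay 12.1 to 25.8 kb from the start and 1 at 2503 bp. Beyond the 3′ end, 3 lay 5.21 to 7.18 kb from the start. No other protein-coding gene started in the locus. The window over the start had a GC content of 53.6%, the lowest among the windows nearest to a start of the 10 genes. None of the AP-1, cyclic AMP response, ETS, GC box, PU.1 or CArG words occurred in the 200 bases before the start, which are printed all in lower case from chr10:98725665-98725864 (plus strand) as the contrast to Dusp1 and Dusp5.
Dusp6 promoter: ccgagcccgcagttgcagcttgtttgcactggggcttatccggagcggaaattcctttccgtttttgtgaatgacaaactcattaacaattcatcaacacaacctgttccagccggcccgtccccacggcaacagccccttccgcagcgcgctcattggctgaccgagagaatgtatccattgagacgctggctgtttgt

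Dusp7 (mm9 chromosome 9, 106270963 to 106278055, plus strand) encodes the closest relative of Dusp6, also cytoplasmic and selective for ERK. It had the most windows of the 10 genes, 6 promoter windows and 17 other windows, and 97.8% of protein-coding genes had fewer other windows. Its promoter windows were spread over 3 of its 4 annotated starts. The outermost start had 3 windows within 1 kb, the next 1 and the third 4, a window being counted at each start it was near, and the most downstream start had none. The centre nearest to a start lay 117 bp upstream of it. Of the other windows, 4 were upstream of the gene, 1 in an intron and 12 downstream. Only 10 of the 17 were nearest to Dusp7. The remaining 7 included 6 nearest to Rpl29, a ribosomal protein gene whose start lies beyond the 50 kb limit, and 1 nearest to Poc1a. At Dusp4, Dusp5 and Dusp6 only 1 window, of Dusp5, was nearer to another gene. The single promoter window of the 10 genes with an AP-1 word was at Dusp7, 565 bp downstream of a start.

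Dusp10 (mm9 chromosome 1, 185837181 to 185899515, plus strand) encodes a phosphatase of p38 and JNK rather than ERK. It had 2 promoter windows and 5 other windows, all 5 nearest to Dusp10. Both promoter windows were at the downstream of its 2 annotated starts, with centres 45 bp upstream and 478 bp downstream of it. No window lay within 1 kb of the outermost start, so Dusp10 had no promoter window when the outermost start alone was used. The first of the windows was shared with the start of 1700056E22Rik, and whether it served 1 or both genes was not tested. Other windows lay 33.0 kb upstream of the gene, in introns 3.59 and 17.6 kb from the downstream start, in a coding exon at 34.6 kb and beyond the gene at 42.6 kb. The 200 bases before the downstream start are printed from chr1:185858060-185858259 (plus strand), GC boxes in capitals, because only that start had a window.
Dusp10 promoter: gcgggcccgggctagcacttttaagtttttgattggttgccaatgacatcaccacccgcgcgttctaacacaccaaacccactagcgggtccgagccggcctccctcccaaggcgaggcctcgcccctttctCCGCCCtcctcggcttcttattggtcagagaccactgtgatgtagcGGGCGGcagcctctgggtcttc

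**Figure D2:**
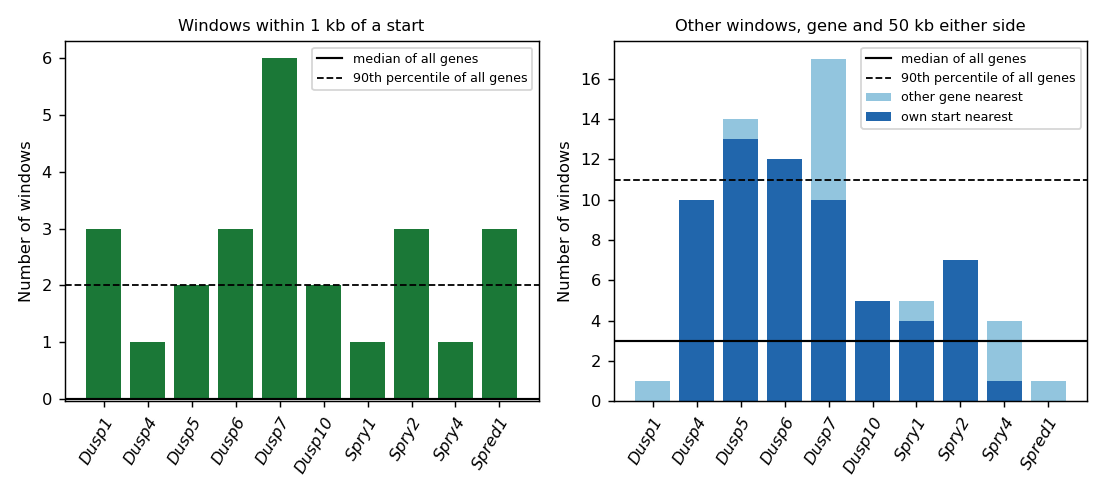
Numbers of promoter windows (left) and of other windows within the gene and 50 kb either side (right) for each of the 10 genes, with other windows divided by whether the gene's own start was the nearest protein-coding start. Solid and dashed lines are the median and the 90th percentile of all protein-coding genes, 0 and 2 on the left and 3 and 11 on the right. Dusp5, Dusp6 and Dusp7 stand above the dashed line on the right, and Dusp1 and Spred1 below the solid one.

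Sprouty proteins block the path from growth factor receptors to RAS and RAF, and their genes are induced by that path. Spry1 (mm9 chromosome 3, 37538869 to 37543520, plus strand) had 1 promoter window, centred 87 bp upstream of the first of its 4 closely spaced starts, and 5 other windows, all downstream of the gene. Of these, 4 were nearest to Spry1, at 11.3, 14.2, 14.6 and 26.0 kb, and the one at 47.5 kb was nearer to Gm5148. Spry2 (mm9 chromosome 14, 106291166 to 106296036, minus strand) had 3 promoter windows and 7 other windows, all 7 nearest to Spry2. Its nearest centre lay 475 bp upstream of the start, so no window was centred on the start itself. One peak call with 5 listed summits reached from 475 bp to 2.06 kb upstream of Spry2, and 58 of 44863 calls (0.129%) had at least 5. The window nearest to the Spry2 start had a GC content of 76.0%, the highest of the 25 promoter windows. Further windows of Spry2 lay 23.9 and 26.2 kb upstream and 1.72 and 9.12 kb downstream of the start.

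In the Spry1 window at 26.0 kb the AP-1 word lay 1 bp from the window centre. In the Spry2 window at 26.2 kb upstream 12 bases separated 2 AP-1 words, and an ETS word stood further out in the same window. Both are printed with AP-1 words in capitals, from chr3:37565012-37565042 (plus strand) and chr14:106322157-106322206 (minus strand), beside AP-1 words of Dusp4 (intron, chr8:35877768-35877798) and Dusp10 (intron, chr1:185875782-185875812, both plus strand), so that the word can be compared across phosphatase and Sprouty loci.
Spry1 downstream: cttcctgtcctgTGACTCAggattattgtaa
Spry2 upstream: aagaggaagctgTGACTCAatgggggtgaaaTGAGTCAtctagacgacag
Dusp4 intron: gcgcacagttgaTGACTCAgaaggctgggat
Dusp10 intron: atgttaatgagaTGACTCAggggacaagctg

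All 4 stretches are from the reference genome, and the cells may differ from it.

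Spred1 (mm9 chromosome 2, 116947110 to 117008015, plus strand) encodes a membrane protein that brings neurofibromin, an inactivator of RAS, to the plasma membrane. It had 3 promoter windows and 1 other window. Its promoter windows flanked the start rather than covering it, with centres 1.16 kb and 772 bp upstream and 1.16 kb downstream of a start. They were among the promoter windows closest to the 1 kb limit, with edges at 910 and 909 bp for the outer pair, followed by a Spry2 window at 830 bp. The nearest windows beyond the limit were at Dusp6, Dusp4 and Dusp7, with edges at 1032, 1047 and 1075 bp. Although Spred1 spans 60.9 kb, no window lay in it beyond the promoter window in an intron. The only other window was downstream of the gene, 46.2 kb from its end, and nearer to Fam98b. Just inside the 50 kb limit on the flank came this window and a Dusp4 window at 46.1 kb.

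Spry4, on mm9 chromosome 18 from 38745922 to 38760922 (minus strand), had 1 promoter window and 4 other windows. The promoter window was centred 78 bp upstream of its start and also lay within 1 kb of starts of Arhgap26 and of 9630014M24Rik. Accessibility there cannot be assigned to 1 of these genes. Only 1 of the 4 other windows, in a coding exon, was nearest to Spry4. The remaining 3, at 3.77, 30.6 and 31.6 kb upstream, were nearer to Arhgap26 starts. Among the Sprouty genes, Spry4 thus had the fewest windows nearest to itself, 1 against 4 for Spry1 and 7 for Spry2.

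The 10 loci held few other genes. A median of 0 other protein-coding genes started in them, with at most 2, against a median of 2 over all genes and also over genes with a promoter window, and 6 of the 10 loci had none. Of the 76 other windows, 62 (81.6%) were nearest to the gene of the locus. Summed over all protein-coding genes, where a window counts once per locus, the share was 25.8%, and 43.0% when windows at a start of another gene were left out. No other window of the 10 loci lay within 1 kb of a start of another gene, against 42.0% in the same sum. These shares over all genes were not limited to loci with as few other starts, and the part of gene spacing in them was not tested. The median number of other windows nearest to the gene was 6 for the 10 genes, 0 for all genes and 1 for genes with a promoter window. It was 5.5 for a list of ERK output genes and 4.5 for a list of other ERK brakes, close to the 10 genes. By position, 30 of the other windows were upstream of the gene, 31 downstream, 12 in introns and 3 in coding exons.

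**Figure D3:**
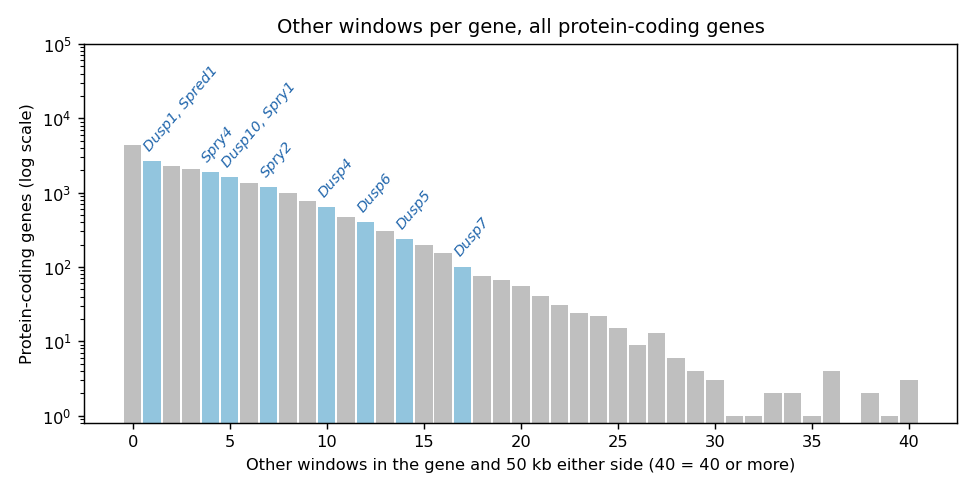
Number of protein-coding genes (log scale) by the number of other windows in the gene and 50 kb either side. Blue bars are the counts at which the 10 genes fall, named above them. Dusp1 and Spred1 share a count of 1, and Dusp7 lies highest with 17.

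Peak calls with several listed summits supplied 15 of the 25 promoter windows (60.0%), at 6 genes, against 33.2% of all promoter windows. They also supplied 20 of the 76 other windows (26.3%), against 9.94% of windows away from starts. Summits of a call lie close together and are not independent, and with overlapping windows merged the 25 and 76 windows became 21 and 68 blocks. The list keeps only part of the peak calls that were numbered. The methods state that in most datasets the 50000 peaks of lowest q-value were kept. A place without a window may thus hold a weaker peak. Between the nearest listed windows outside each of the 10 loci 166 calls were numbered, of which 78 were listed (47.0%). Some of the unlisted calls may lie beyond the 50 kb limit, so the share within the loci may be higher. Counted in this way, Spred1 kept 3 of 11, Dusp1 3 of 10 and Spry1 5 of 18, whereas Dusp5 kept 16 of 22. On chromosomes 1 and 10 to 13 of the whole list 29.6% of calls were kept, against 41.3% elsewhere. Dusp10 (6 of 17) and Dusp6 (8 of 18) lie on those chromosomes, and the part of this in their counts was not tested.

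The AP-1 word was found in 24 of the 76 other windows (31.6%, exact 95% interval 21.4% to 43.3%), against 32.0% of the 31672 windows away from starts. The value of the whole list fell inside the interval. The word occurred at 8 of the 10 genes and at neither Spred1 nor Spry4. Of its 30 sites, 12 lay within 100 bp of the window centre. In promoter windows it was found in 1 of 25 (4.00%), against 11.9%. Spelled TGAGTCA only, on either strand, it was found in 20 of the 76 other windows (26.3%, interval 16.9% to 37.7%), against 25.9%. In promoter windows that spelling was found in 1 of 25 (4.00%), against 8.89%. The ETS word was found in 10 of the 76 other windows (13.2%, interval 6.49% to 22.9%), against 10.9%, at Dusp5, Dusp6, Dusp7, Spry1 and Spry2. In promoter windows it occurred in 2 of 25 (8.00%, interval 0.984% to 26.0%), at Dusp7 and Spry2, against 15.6%.

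Another spelling of the ETS word, CCGGAAG, was found in 0 of 25 promoter windows (exact upper bound 13.7%), against 17.5% of all promoter windows, and in 7 of 76 other windows (9.21%, interval 3.78% to 18.1%), against 3.69%. GC boxes were found in 14 of 25 promoter windows (56.0%), at every gene but Spry4, against 63.5%. In other windows they were found in 17 of 76 (22.4%, interval 13.6% to 33.4%), against 13.5%. Some of these windows lay not far beyond the 1 kb limit, at Dusp4 1.41, 1.89 and 2.37 kb and at Dusp6 1.28 and 1.57 kb from the start. The share of the whole list likewise left out only windows within 1 kb of a start. Base composition at starts was near that of the list, with a median GC content of 58.6% against 59.4% and a median ratio of observed to expected CpG of 0.753 against 0.699. In other windows the medians were 50.8% against 48.8% and 0.270 against 0.212. All words were searched on both strands, windows of a call share sequence, and the intervals cover counting error only.

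**Figure D4:**
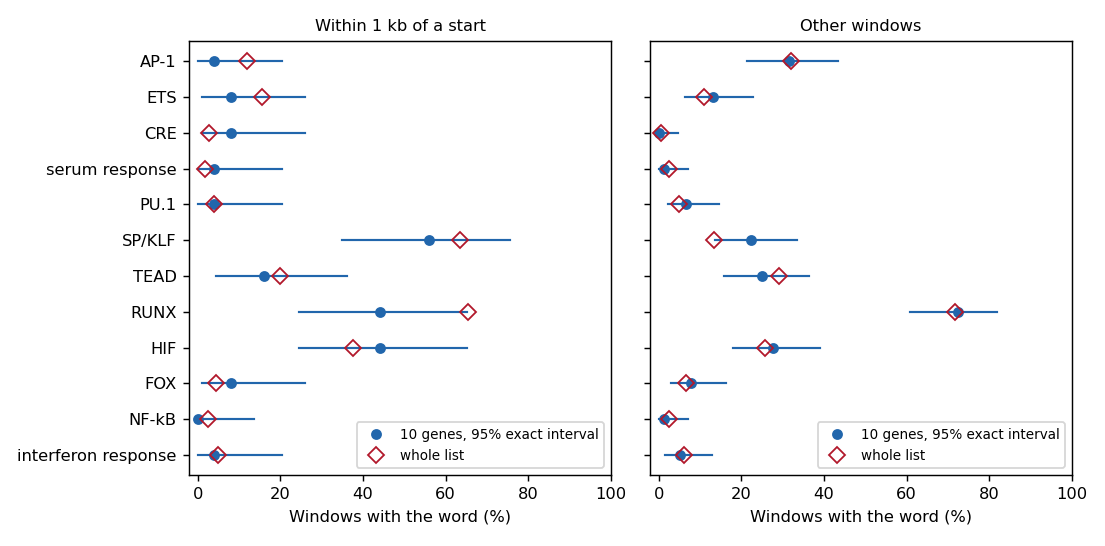
Percent of windows that hold each of 12 words, for windows within 1 kb of a start (left) and other windows (right). Blue points are the windows of the 10 genes with exact 95% intervals and open red diamonds the whole list. For AP-1 in other windows the point and diamond coincide at 31.6% and 32.0%.

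Relatives of the 10 genes were set beside them from lists chosen with earlier results of these data known. Among the remaining MAP kinase phosphatases, all 3 with a unique gene model had a promoter window. Dusp2, a nuclear phosphatase of activated lymphocytes, had 3 promoter and 6 other windows, Dusp9 had 1 and 1, and Dusp16 had 1 and 7. Of the remaining Sprouty and Spred genes, Spred2 had 1 and 5 and Spred3 had 1 and 6. The median number nearest to the gene was 2 in the former list and 2.5 in the latter. The atypical dual-specificity phosphatases, which lack the domain that docks MAP kinases, had a promoter window at 9 of 14 genes (64.3%), against 48.2% of all protein-coding genes. Those without were Dusp15, Dusp21, Dusp22, Dusp26 and Dusp27. The median over the 14 was 3.5 other windows, and 0 nearest to the gene, none of the 14 reaching 10 other windows.

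Most genes of the pathway itself had a window at a start, against 48.2% of all protein-coding genes. The pathway lists were chosen with earlier results of these data known. Of 21 genes in a list of the RAS-ERK cascade, which also took in 3 genes of the p38 and JNK kinases, 20 (95.2%) had a promoter window, the exception being Ptpn11, which encodes the phosphatase SHP2. Their median was 7 other windows but 1 nearest to the gene. All 10 genes in a list of further ERK brakes, among them Spred2 that was counted above, had a promoter window, with a median of 5 other windows and 4.5 nearest to the gene. There were 22 other windows at the receptor phosphatase gene Ptprj, 16 at Lrig1, which encodes an inhibitor of EGF receptors, and 10 at Dab2ip. All 16 output genes of ERK signalling had a promoter window too, with medians of 3.5 promoter and 9.5 other windows and of 5.5 nearest to the gene. By other windows, with those nearest to the gene in brackets, the highest were Epha2 with 22 (15), Ier3 with 21 (6), Plaur with 19 (10), Fosl1 with 16 (2) and Ier2 with 15 (6). Dusp7, with 17 (10), fell among these, and Dusp5 and Dusp6, with 14 (13) and 12 (12), above the list's median.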

How the data were processed

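Single-cell Pi-ATAC libraries were described by the submitters, and 1 file of the whole series was analysed. The authors clipped adapters, as their methods state, aligned read pairs to mm9 with Bowtie2 2.1.0, removed duplicates with Picard 1.79 and mitochondrial reads, and called summits with MACS2 without model or shift (version not given in the sources used here). For most datasets, the methods state, they kept the 50000 peaks of lowest q-value. The deposited values are start and end positions of windows with a name, of no other unit. There are no counts, scores or fold values per window, so neither depth nor a comparison of the groups could be had.

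Windows were matched to GENCODE vM1 models on the NCBIM37 reference, whose chromosome names and lengths fit mm9. A window with at least 1 bp inside 1 kb of any annotated start of a gene was its promoter window, and a locus took 50 kb either side. Distances run from the window centre to the nearest start of that gene. Counts were made in Python 3.11.15 and exact binomial intervals (95%) with SciPy 1.17.1. The counting was tested on simulated windows and words. A set of 15 consensus words was searched in the reference sequence, on both strands, and NFI, interferon response, NF-kB, CTCF and serum response (CArG) words are given by name only. Exonic bases were not printed.

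The 10 genes, the gene lists and the words were chosen with earlier results of these data known. Genes named are the 10 genes, their relatives, genes starting in a locus with a window there, and up to 6 genes per pathway list with the most other windows. Gm8225, Nutf2-ps1, Rpl29, Poc1a, Gm5148 and Fam98b were named after their values were seen. Values of some genes of the lists are not reported here. Spry3 had no match, and Dusp8, with 2 coding models (2 and 0 promoter windows, 8 and 10 other windows), was outside the 22072 genes, as were 278 models in all whose symbol is not unique. No statistical test was run, since the list is 1 pooled sample. Alternatives covered the start distance, flank, choice of starts, merging, word spelling and position, and, after the data were seen, chromosomes and several-summit calls.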

Additional observations from a re-analysis of the deposited data

How the results depend on the processing

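All 10 genes kept a promoter window with a start distance of 2.5 kb, and 9 did with 500 bp (without Spred1) or with outermost starts alone (without Dusp10). Without genes on chromosomes 1 and 10 to 13, chosen after seeing the data, 8 of 8 did, and 6 of 10 had one from a call with several summits, also chosen after seeing the data. The 25 promoter windows became 14 at 500 bp and 42 at 2.5 kb. The 76 other windows became 41 with a 10 kb flank, 121 with 100 kb and 20 in several-summit calls, and the 62 nearest to their gene became 40 with 10 kb. The share of protein-coding genes with a promoter window was 46.4% at 500 bp, 51.3% at 2.5 kb, 44.9% with outermost starts and 13.0% for several-summit calls, and that with another window 54.1% at 10 kb and 88.4% at 100 kb. The AP-1 share of other windows was 14.5% within 100 bp of the centre, a shorter stretch. No whole-list share at that setting was set beside it. The ETS share of promoter windows was 0% with CCGGAAG.

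No paired analysis was possible because the list pools cells, gives no value per cell and was not tested. The list has no scores, so weak and strong windows count alike, and calls that were not kept are not seen.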

Other observations

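Words of other factors were also counted at the 10 genes. The TEAD word GGAATG occurred in 19 of 76 other windows (25.0%), at 6 genes, against 29.2% of windows away from starts. The RUNX word TGNGGT occurred in 55 of 76 (72.4%), at all 10 genes, against 71.7%. In promoter windows it occurred in 11 of 25 (44.0%, exact 95% interval 24.4% to 65.1%), at Dusp1, Dusp6, Dusp7 and Spry2 only, against 65.4%, and this was 1 of 15 words read in each class. The HIF word ACGTG occurred in 21 of 76 other windows (27.6%), against 25.8%, and the PU.1 word in 5 of 76 (6.58%), at Dusp6, Spry1, Spry4 and Spred1, against 4.93%. The forkhead word TGTTTAC occurred in 6 of 76 (7.89%), against 6.63%. The E-box word CANNTG occurred in 72 of 76 (94.7%), against 94.2%. The interferon response word occurred in 4 of 76 (5.26%), at Dusp4, Dusp6 and Spry2, against 6.07%. The NF-kB word and a CArG box occurred in 1 of 76 other windows each (1.32%), both at Spry1, against 2.61% and 2.57%. The CTCF core occurred in 1 of 76 (1.32%), at Dusp5, against 1.94%. The NFI palindrome occurred in none of the 76 other windows, against 38 of 31672 windows away from starts (0.120%). It also occurred in none of the 25 promoter windows, against 4 of 17303 promoter windows in the whole list (0.0231%).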
